A study of Oryza sativa with 8 samples.

Results

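The dehydrins and RAB16 proteins of rice were followed in 8 Affymetrix arrays through 5 genes, namely RAB16B, RAB16C, RAB16D, RAB21 (also known as RAB16A) and Dhn1 (also listed as LIP9). They were chosen by name, as RAB16B, Dhn1 and every gene whose symbol or synonym begins with RAB16 or RAB21 or is DHN1, and they make up 5 of the 17905 genes that had a probe set of their own. A probe set is the group of short probes that reads a transcript, and 8 of the 57194 probe sets tested belonged to these genes. Every array held RNA from leaves of 21-day-old seedlings of the japonica cultivar Zhonghua11, pooled from 20 seedlings and labelled as a biological replicate. There were 4 groups of 2 arrays. They were OsGRAS23 overexpression plants (OsGRAS23-OE) under drought, OsGRAS23-OE plants under normal conditions, wild-type plants (WT) under drought and WT plants under normal conditions. Normal leaves were taken from seedlings in liquid culture, and drought leaves from seedlings moved to filter paper and left there until rolling of the WT leaves set in. The promoter of the transgene and the number of lines behind the OsGRAS23-OE arrays were not given in the sources used here. OsGRAS23 was matched to no probe set through the gene tables used here, so its overexpression was not checked on the arrays. No array held seedlings kept wet and handled in the same way, so drought, handling and elapsed time cannot be told apart.

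Dehydrins are a class of late embryogenesis abundant (LEA) proteins, very hydrophilic and largely unfolded, that accumulate in maturing seeds and in vegetative tissue losing water, where they are thought to protect membranes and other proteins. The RAB genes were named for their response to the hormone abscisic acid (ABA). ABA bound to its receptors blocks the clade A protein phosphatases 2C, which frees SnRK2 kinases (SAPK in rice) to activate bZIP factors, and these bind ABA-responsive elements in promoters of genes such as the RAB16 genes. In the RefSeq table of rice, RAB16D, RAB16C, RAB16B and RAB21 lie in that order on chromosome 11, with a long non-coding RNA gene and a pseudogene between RAB16C and RAB16B as the only other entries among them. Dhn1 lies on chromosome 2. The RAB16 genes are similar in coding sequence, and how far their probes cross-hybridise was not tested.

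The values were log2 expression levels, as deposited by the authors, and array medians lay between 4.80 and 4.90. Replicate arrays correlated across probe sets at 0.987 to 0.991 in the 4 groups, and probe sets are not independent replicates. Of 6 leaf marker genes, 5 had a mean log2 level above 5. The log2 of their summed level was 15.13 to 15.59 in OsGRAS23-OE drought and 15.81 to 15.90 in OsGRAS23-OE normal arrays, and 15.41 to 15.50 in WT drought and 15.92 to 16.01 in WT normal arrays, so it was lower under drought in both lines. Of 10 root marker genes, 8 were above 5, and their summed level was 10.75 to 10.77 in OsGRAS23-OE drought and 10.38 to 12.34 in OsGRAS23-OE normal arrays, and 10.26 to 10.67 in WT drought and 11.33 to 12.43 in WT normal arrays. Lsi1, the brightest of them, was at 9.43 and 9.95 in OsGRAS23-OE drought and 9.27 and 11.89 in OsGRAS23-OE normal arrays. In WT it was at 9.20 and 9.28 under drought and 10.75 and 11.80 under normal conditions. The sum follows its brightest genes, and not all root markers fell. OsIRO2 was higher under drought by 1.39 in OsGRAS23-OE and 0.69 in WT on the log2 scale. Seed and embryo markers, where LEA proteins also abound, were above 5 for 3 of 10 genes and summed to 9.45 to 9.69 over all 8 arrays. The part of these shifts in the results was not tested, and in pooled leaves fewer cells of a type and less RNA per cell cannot be told apart.

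Under drought, RAB16B and the brightest probe set of Dhn1 were higher in both lines. RAB21 was higher in WT by the same threshold, on a single probe set, and its drought change was not called different between the lines. RAB16C and RAB16D, at the other end of the cluster, did not pass this threshold. A change was called when it was 2-fold or more with a limma adjusted p below 0.05. In OsGRAS23-OE plants 2 of the 8 probe sets were called higher, against 1.6% of all probe sets, and in WT plants 3 of 8 were, against 2.17%. None was called lower in either line, against 0.836% of all probe sets in OsGRAS23-OE and 5.51% in WT. With both lines averaged, 4 of 8 were called higher and 0 lower, against 2.08% and 2.84% of all probe sets. The 4 were those of RAB16B, RAB21 and the brightest probe set of Dhn1, and in each of them every drought array was above every normal array, which held for 11.9% of all probe sets. Within a line, both drought arrays were above both normal arrays for 5 of 8 in OsGRAS23-OE, against 25.8%, and for 5 of 8 in WT, against 36.7%. The 2 probe sets called in OsGRAS23-OE were those of RAB16B and the brightest of Dhn1, the genes that the choice named first. Members were chosen with earlier results of these data known, so these shares are a description and carry no test.

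**Figure D1:**
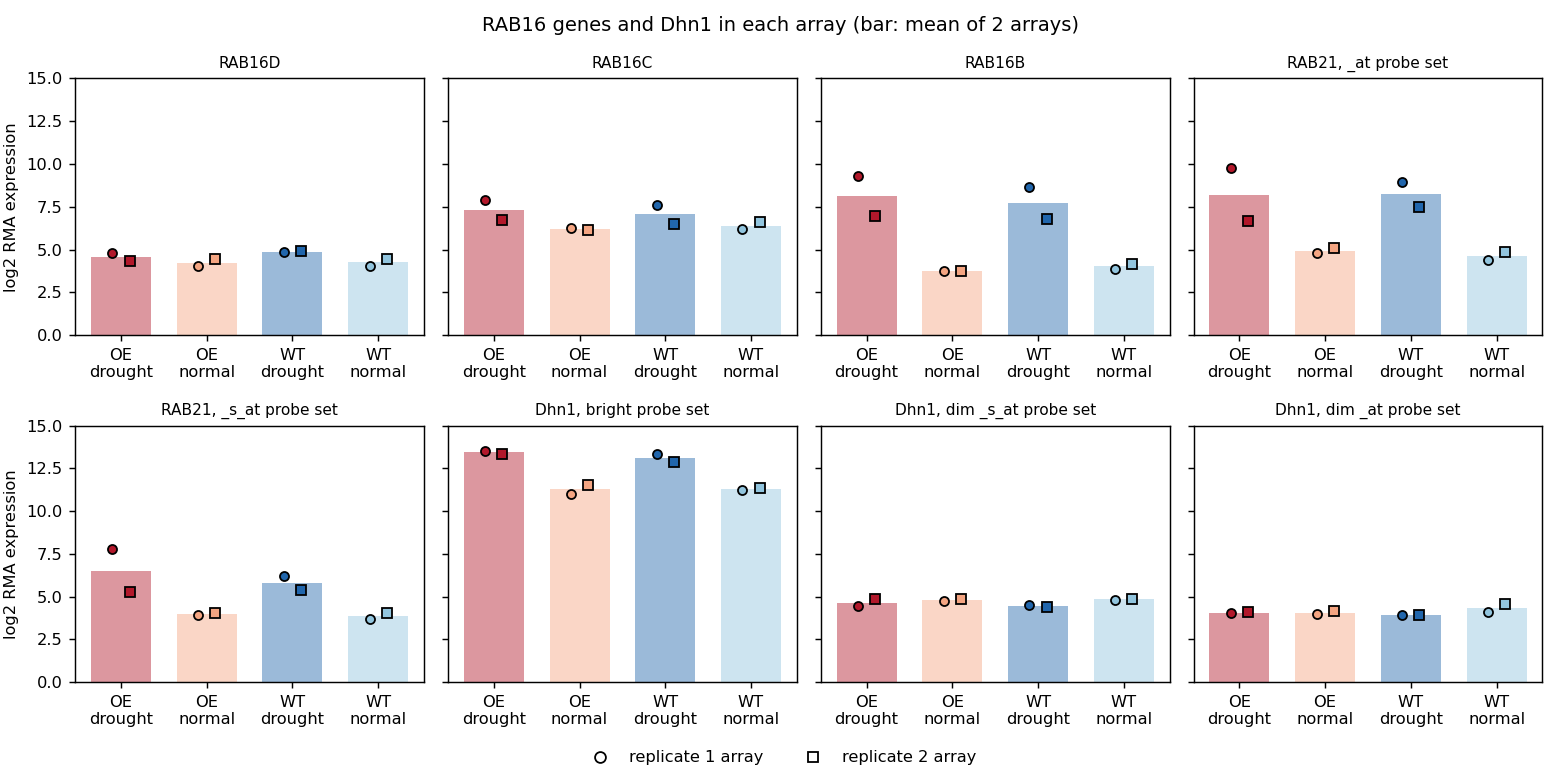
Log2 RMA expression of the 8 probe sets in each of the 8 arrays, with bars for the mean of 2 arrays, circles for replicate 1 and squares for replicate 2. OE stands for OsGRAS23-OE. The drought arrays of RAB16B, RAB21 and the bright Dhn1 probe set lie above all normal arrays, and replicate 1 lies above replicate 2 in both drought groups of RAB16B, RAB16C and RAB21.

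RAB16B had the largest fitted drought change among the members in both lines, close to that of RAB21 in WT. Its log2 level was 9.30 and 6.95 in the OsGRAS23-OE drought arrays, against 3.78 and 3.77 in the OsGRAS23-OE normal arrays. In WT plants it was 8.66 and 6.79 in the drought arrays, against 3.89 and 4.16 in the normal arrays. All 4 drought arrays were above all 4 normal arrays. In the normal arrays RAB16B, at 3.77 to 4.16, was below the median of the array and within the range of the 7 seed and embryo markers with a mean log2 level under 5 (2.48 to 4.91). These 7 were picked for being dim, so their range sets no detection limit. RAB16B was not shown to be above background in normal leaves, so its change is a difference from a level near the floor of the array and is given on the log2 scale without a fold. The log2 change was 4.35 (standard error 0.73, limma adjusted p = 0.0170) in OsGRAS23-OE and 3.70 (standard error 0.73, limma adjusted p = 0.0117) in WT. The change was 4.03 over both lines (standard error 0.52, limma adjusted p = 0.00127). In OsGRAS23-OE the normal arrays were nearly equal, so leaving out either kept the change near 4.35, but the call was lost. In WT it was lost without drought replicate 1, where the change was 2.77 (limma adjusted p = 0.0750), and without normal replicate 2 (0.0693).

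RAB21, the neighbour of RAB16B on the chromosome which encodes a basic, glycine-rich protein, was read by a pair of probe sets, called here _at and _s_at after the ends of their names. On the _at probe set its log2 level was 9.75 and 6.67 in the OsGRAS23-OE drought arrays, against 4.78 and 5.08 in the OsGRAS23-OE normal arrays. On the same probe set it was 8.96 and 7.49 in the WT drought arrays, against 4.39 and 4.86 in the WT normal arrays. Again no drought array overlapped with a normal one, but the drought arrays of OsGRAS23-OE lay 3.08 apart. The log2 change was 3.28 in OsGRAS23-OE (standard error 0.83, limma adjusted p = 0.0725), which did not pass the threshold, and 3.60 in WT (standard error 0.83, limma adjusted p = 0.0209), which did. Without OsGRAS23-OE drought replicate 1 the change in OsGRAS23-OE was 1.74 (limma adjusted p = 0.134), and without drought replicate 2 it was 4.82 (0.00721), which was called. In the normal arrays RAB21, at 4.39 to 5.08 on this probe set, was near the array medians. Among the dim seed markers it was near the brightest alone, prolamin (4.22 to 4.91). The WT call was lost whichever WT array was left out, with changes of 2.87 to 4.33 and limma adjusted p-values of 0.0536 to 0.122.

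The _s_at probe set of RAB21 is of the class that can match more than 1 transcript. Its log2 level was 7.77 and 5.24 in the OsGRAS23-OE drought arrays, against 3.94 and 4.07 in the OsGRAS23-OE normal arrays. In WT plants it was 6.21 and 5.37 in the drought arrays, against 3.72 and 4.07 in the normal arrays. The groups did not overlap in either line, as on the _at probe set. The log2 changes, 2.50 in OsGRAS23-OE (limma adjusted p = 0.0794) and 1.90 in WT (limma adjusted p = 0.0734), did not pass the threshold. Without OsGRAS23-OE drought replicate 1 the change in OsGRAS23-OE was 1.24 (limma adjusted p = 0.107), and without drought replicate 2 it was 3.77 (0.00342), which was called. Without either OsGRAS23-OE drought array, or with the WT arrays fitted alone, the WT change of 1.90 was called (limma adjusted p = 0.00558 and 0.0105). Leaving out WT drought replicate 1 gave 1.48 (0.281) and leaving out replicate 2 gave 2.32 (0.135), neither called. Over both lines RAB21 was called on both probe sets, at 3.44 (standard error 0.59, limma adjusted p = 0.00433) and 2.2 (standard error 0.46, limma adjusted p = 0.0105).

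RAB16C moved less. Its log2 level was 7.91 and 6.73 in the OsGRAS23-OE drought arrays, against 6.27 and 6.16 in the OsGRAS23-OE normal arrays. It was 7.62 and 6.50 in the WT drought arrays, against 6.20 and 6.58 in the WT normal arrays. Drought and normal arrays were separate in OsGRAS23-OE and overlapped in WT. The log2 change was 1.10 in OsGRAS23-OE (95% interval 0.15 to 2.05, limma adjusted p = 0.219) and 0.67 in WT (-0.29 to 1.62, limma adjusted p = 0.282). Over both lines it was 0.88 (limma adjusted p = 0.0624), and it was called after quantile normalization (1.03, limma adjusted p = 0.0352), without OsGRAS23-OE drought replicate 2 (1.18, 0.0235) and without WT drought replicate 2 (1.16, 0.0341). Leaving out drought replicate 1 of OsGRAS23-OE gave 0.59 (limma adjusted p = 0.150), and leaving out that of WT gave 0.60 (0.178), neither called. Within OsGRAS23-OE the change was 0.51 without drought replicate 1 and 1.69 without drought replicate 2, and within WT it was 0.11 without drought replicate 1 and 1.22 without drought replicate 2, none of them called.

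RAB16D, the member of the cluster farthest from RAB21, was dim in every group. Its log2 level was 4.80 and 4.33 in the OsGRAS23-OE drought arrays, against 4.03 and 4.43 in the OsGRAS23-OE normal arrays. It was 4.85 and 4.91 in the WT drought arrays, against 4.05 and 4.47 in the WT normal arrays. The groups overlapped in OsGRAS23-OE and not in WT. The log2 change was 0.33 in OsGRAS23-OE (95% interval -0.17 to 0.84, limma adjusted p = 0.527) and 0.62 in WT (0.11 to 1.13, limma adjusted p = 0.0839). Beyond RAB21 the next gene in the table, LOC9268965, was read by no probe set used here, and the following 2 genes were bright with small changes. LOC4350455 had log2 changes of -0.11 in OsGRAS23-OE and -0.06 in WT, and LOC4350456 of -0.12 and -0.54, none of them called. The WT change of LOC4350456 (95% interval -0.88 to -0.20, limma adjusted p = 0.0384) was under 2-fold.

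Dhn1, an acidic dehydrin known from cold and drought responses, was bright in every group on one of its probe sets. Its log2 level was 13.50 and 13.36 in the OsGRAS23-OE drought arrays, against 11.02 and 11.54 in the OsGRAS23-OE normal arrays. In WT plants it was 13.31 and 12.85 in the drought arrays, against 11.24 and 11.37 in the normal arrays. Every drought array was above every normal array, and replicates lay within 0.51 of each other. The log2 change was 2.15 in OsGRAS23-OE (standard error 0.22, limma adjusted p = 0.00260), a 4.44-fold difference with a 95% interval of 3.15 to 6.26. It was 1.78 in WT (standard error 0.22, limma adjusted p = 0.00212), a 3.43-fold difference with an interval of 2.43 to 4.83. Over both lines it was 1.96 (limma adjusted p = 0.000165). The call was kept in both lines under all 12 alternatives tried, including each of the 8 arrays left out, with changes of 1.89 to 2.41 in OsGRAS23-OE and 1.55 to 2.01 in WT.

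The other probe sets assigned to Dhn1, both dim, did not follow it. The dim _s_at probe set had log2 levels of 4.45 and 4.86 in OsGRAS23-OE drought and 4.75 and 4.84 in OsGRAS23-OE normal arrays, and of 4.50 and 4.38 in WT drought and 4.82 and 4.88 in WT normal arrays. The dim _at probe set lay between 3.90 and 4.56 in all 8 arrays. Their log2 changes ran from -0.41 to -0.01 in the 2 lines, and none was called. With the bright probe set they correlated over the 8 arrays at -0.63 and -0.44, so the drought change of Dhn1 rests on the bright probe set alone. Of the 8 probe sets, 5 had a mean log2 level above 5. The remaining 3 were both of these and that of RAB16D.

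**Figure D2:**
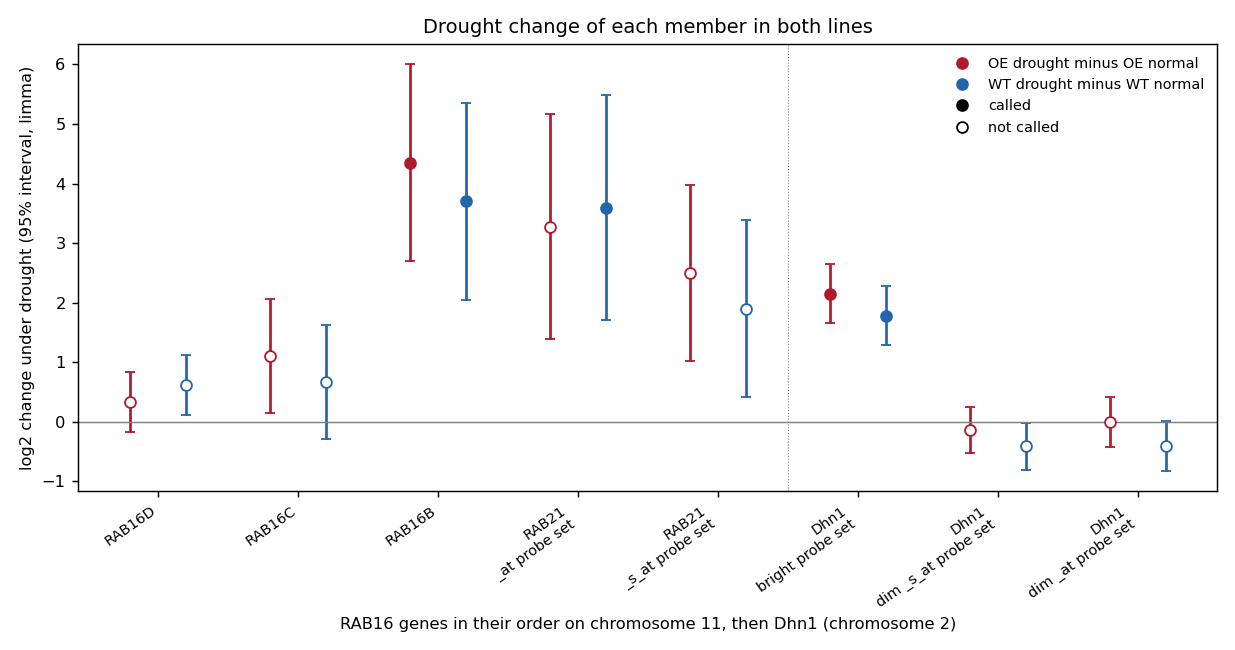
Log2 change under drought (y axis) with 95% intervals from limma for each probe set, in OsGRAS23-OE (OE, red, left) and WT (blue, right), with filled points for called changes. RAB16 genes stand in their chromosomal order, where the changes of RAB16B and RAB21 (1.90 to 4.35) exceed those of RAB16D and RAB16C (0.33 to 1.10), and Dhn1 has the narrowest interval among the called changes.

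The order of the group means was read for each called gene with the spread between arrays. RAB16B averaged 8.13 ± 1.66 in OsGRAS23-OE drought, 7.73 ± 1.32 in WT drought, 4.03 ± 0.19 in WT normal and 3.77 ± 0.0012 in OsGRAS23-OE normal arrays (SD, n = 2 each). Dhn1 on its bright probe set averaged 13.43 ± 0.10 in OsGRAS23-OE drought, 13.08 ± 0.33 in WT drought, 11.31 ± 0.09 in WT normal and 11.28 ± 0.36 in OsGRAS23-OE normal arrays (SD, n = 2 each). RAB21 on its _at probe set averaged 8.21 ± 2.17 in OsGRAS23-OE drought and 8.22 ± 1.03 in WT drought arrays (SD, n = 2 each). Its normal arrays averaged 4.93 ± 0.21 in OsGRAS23-OE and 4.63 ± 0.33 in WT (SD, n = 2 each). In all 3 genes the drought groups of the lines stood next to each other, as did the normal groups, and neither pair passed the test between the lines given next.

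To ask whether OsGRAS23 overexpression altered these genes, the lines were compared within each condition and the drought changes were set against each other. None of the 8 probe sets was called between OsGRAS23-OE and WT under drought, against 0.0157% of all probe sets, or under normal conditions, against 0.0192%. The difference between the drought changes was called for none of the 8, and for 0.0% of all probe sets. At an unadjusted p under 0.05 limma found 0 of 8 in each of these 3 comparisons, against 7.06% of all probe sets under drought, 4.1% under normal conditions and 6.71% for the difference between the drought changes. The intervals were wide for RAB16B and RAB21, so a difference of several-fold in either direction was not detectable with 2 arrays a group. For RAB16B the OsGRAS23-OE drought level minus the WT drought level was 0.40 on the log2 scale (95% interval -1.25 to 2.05), and the drought changes differed by 0.65 (-1.68 to 2.99). For RAB21 on its _at probe set the corresponding values were -0.02 (-1.90 to 1.87) and -0.32 (-2.99 to 2.35). Each interval uses a spread pooled over the 4 groups. The drought SDs of RAB16B (1.66 and 1.32) and RAB21 (2.17 and 1.03) exceeded their normal SDs (at most 0.33). The intervals for the levels under drought therefore understate the spread between drought arrays. Dhn1 was measured more tightly. Its level under drought was 0.35 higher in the OsGRAS23-OE arrays than in WT on the bright probe set (-0.15 to 0.84), under normal conditions the difference was -0.03 (-0.52 to 0.47), and the drought changes differed by 0.37 (-0.33 to 1.07). RAB16C differed by 0.26 (-0.69 to 1.21) under drought and RAB16D by -0.31 (-0.82 to 0.19).

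Replicate drought arrays were far apart for RAB16B, RAB16C and RAB21 and not for most other genes. In OsGRAS23-OE, drought replicate 1 exceeded drought replicate 2 by 2.34 for RAB16B, 3.08 and 2.53 for the _at and _s_at probe sets of RAB21, 1.18 for RAB16C, 0.46 for RAB16D and 0.14 for Dhn1 on its bright probe set. In WT the same difference was 1.87 for RAB16B, 1.46 and 0.84 for RAB21, 1.11 for RAB16C, -0.06 for RAB16D and 0.46 for Dhn1. Drought replicate 1 was thus the higher in both lines for 5 of 8 probe sets, against 23.5% of all probe sets. The gap exceeded 1 on the log2 scale in both lines for 3 of 8 probe sets (RAB16B, RAB16C and the _at probe set of RAB21), against 0.145% of all probe sets. Of the 4 further LEA and water-stress genes given below, 2 also had drought replicate 1 higher in both lines. They were LEA19, by 1.53 in OsGRAS23-OE and 1.59 in WT, and rab25, by 1.20 and 0.70. The pooled residual SD was 1.06 for RAB16B, 1.22 for RAB21 on the _at probe set and 0.59 for RAB16C, at percentiles 99.82, 99.92 and 98.41 of all probe sets, and 0.25 for Dhn1, at percentile 74.79. Replicate normal arrays of the RAB16 genes differed by at most 0.47. The numbers 1 and 2 do not pair arrays across groups in the labels, and how far the seedlings of each pool had dried was not given in the sources used here.

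**Figure D3:**
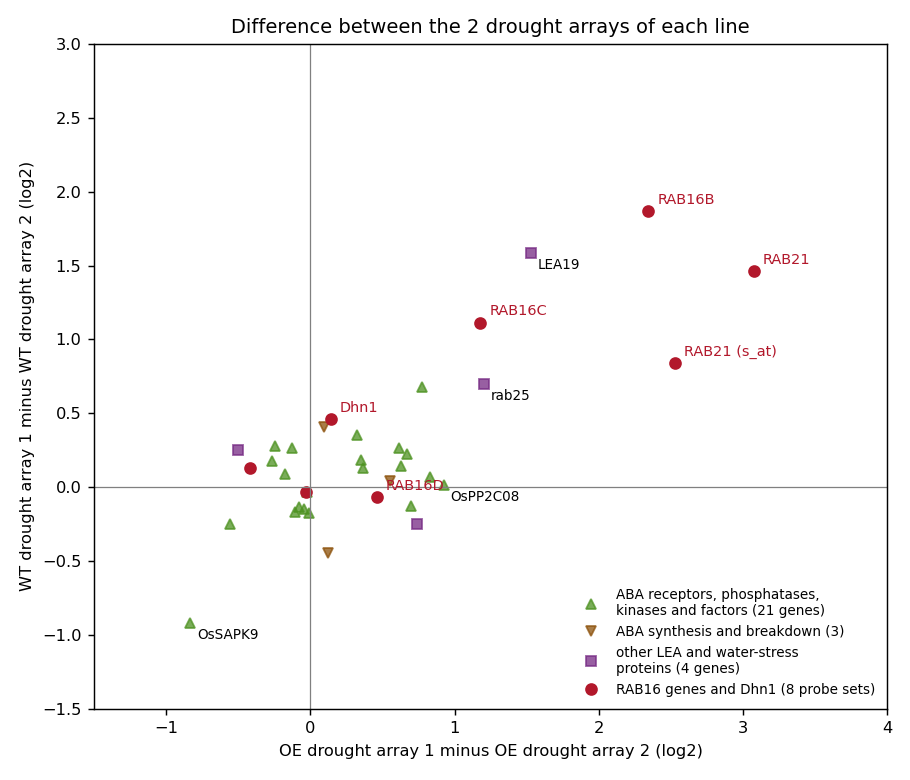
Log2 level of drought replicate 1 minus drought replicate 2 in OsGRAS23-OE (OE, x axis) and in WT (y axis) for the 8 member probe sets (red circles, the dim Dhn1 probe sets unlabelled) and the genes of 3 other lists. RAB16B, RAB16C, RAB21, LEA19 and rab25 lie at the upper right. The 21 genes of ABA receptors, phosphatases, kinases and factors lie within 1 of zero on both axes.

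Across the 8 arrays RAB16B correlated at 0.98 with RAB21 on the _at probe set, 0.96 with Dhn1 on its bright probe set, 0.91 with RAB16C and 0.77 with RAB16D. These arrays share the drought contrast, so the values describe the arrays and carry no test. Among 2327 other probe sets of single genes with a symbol and a mean log2 level above 5, the 5 most like RAB16B over the 8 arrays were SAT1 (r = 0.987), MGD1 (0.985), PXG (0.985), MAN1 (0.985) and MTR1 (0.981). MGD1 makes the chloroplast lipid monogalactosyldiacylglycerol, PXG is a peroxygenase and MAN1 a mannanase of the cell wall. Of these, SAT1 and PXG were called in both lines, with changes of 1.78 and 1.74 in OsGRAS23-OE and 1.48 and 1.93 in WT. The 5 most like Dhn1 were PM1 (r = 0.994), Hox22 (0.984), NIN1 (0.984), CDKG-2 (0.982) and SAP5 (0.982). Hox22, a homeodomain-leucine zipper factor, rose by 4.22 in OsGRAS23-OE and 3.39 in WT on the log2 scale. NIN1, a neutral invertase, rose by 1.49 and 1.09, and PM1 by 2.40 and 1.98.

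The other genes of the pathway were read from lists of symbols. Of 21 genes of ABA receptors, phosphatases, kinases and factors, 9 were called higher in OsGRAS23-OE, against 1.6% of all probe sets. None was called lower, against 0.836%. Their median log2 change was 0.70, against 0.02 for all probe sets. In WT 8 were called higher, against 2.17%, and 1 lower, against 5.51%, with a median of 0.50, against 0.08. Each gene was read by its brightest probe set, whereas 47.87% of all probe sets had a mean log2 level above 5. The called shares and the medians therefore compare unlike sets. PP2C68, OsPP2C30 and OsPP2C09, phosphatases that restrain ABA signalling, had log2 changes of 3.79, 3.18 and 2.92 in OsGRAS23-OE and 4.24, 3.06 and 3.19 in WT, all called. BZIP23, a bZIP factor that acts in ABA responses, rose by 1.82 in OsGRAS23-OE and 2.29 in WT. OsSAPK5, an SnRK2 kinase, fell by 1.01 in WT (limma adjusted p = 0.00729) and had a change of -0.80 in OsGRAS23-OE. In OsGRAS23-OE the count of 9 was 5 without normal replicate 1. In WT the call of OsSAPK5 was lost without drought replicate 2 (-0.88, limma adjusted p = 0.0526), and its change was under 2-fold without normal replicate 1 (-0.99) and after quantile normalization (-0.75). For PP2C68 the drought arrays held 10.80 and 10.43 in OsGRAS23-OE and 10.88 and 10.75 in WT, so they differed less than those of RAB16B. Drought replicate 1 exceeded replicate 2 by 0.78 in OsGRAS23-OE and 0.68 in WT for OsPP2C30, and by 0.83 and 0.07 for OsPP2C09. It was the higher in both lines for 9 of the 21 genes, against 23.5% of all probe sets.

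Of 3 genes of ABA synthesis and breakdown, ABA8OX1, which encodes an ABA 8'-hydroxylase that starts ABA breakdown, was the 1 called lower in each line. Its log2 level was 8.16 and 8.04 in OsGRAS23-OE drought and 9.90 and 10.35 in OsGRAS23-OE normal arrays, and 8.00 and 8.45 in WT drought and 10.37 and 10.05 in WT normal arrays. It fell by 2.03 in OsGRAS23-OE and by 1.99 in WT on the log2 scale. The other 2, ABA8OX2 and the zeaxanthin epoxidase gene ZEP, were not called in either line. NCED and AAO genes of ABA synthesis were also sought by symbol and matched no probe set, so ZEP alone stood for synthesis. Over all probe sets 0.836% were called lower in OsGRAS23-OE and 5.51% in WT.

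Of 4 further LEA and water-stress genes (salT, rab25, EM and LEA19), none was called in either line, with median changes of 0.64 in OsGRAS23-OE and 0.54 in WT. With both lines averaged, rab25 (1.07, limma adjusted p = 0.0204) and LEA19 (1.49, 0.0487) were called higher, against 2.08% of all probe sets. At an unadjusted p under 0.05 limma found LEA19 and rab25 in OsGRAS23-OE, against 17.0% of all probe sets, and rab25 in WT, against 35.9%. The log2 change of rab25 was 1.07 in both lines (limma adjusted p = 0.177 in OsGRAS23-OE and 0.0760 in WT). It was called in WT when the WT arrays were fitted alone (limma adjusted p = 0.0434). LEA19, named after its values were seen, had levels of 7.27 and 5.74 in OsGRAS23-OE drought and 3.92 and 5.03 in OsGRAS23-OE normal arrays, and of 6.66 and 5.07 in WT drought and 4.37 and 5.46 in WT normal arrays. Its drought arrays differed in the same direction as those of RAB16B, and its normal arrays differed in the opposite direction by 1.12 and 1.09.

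**Figure D4:**
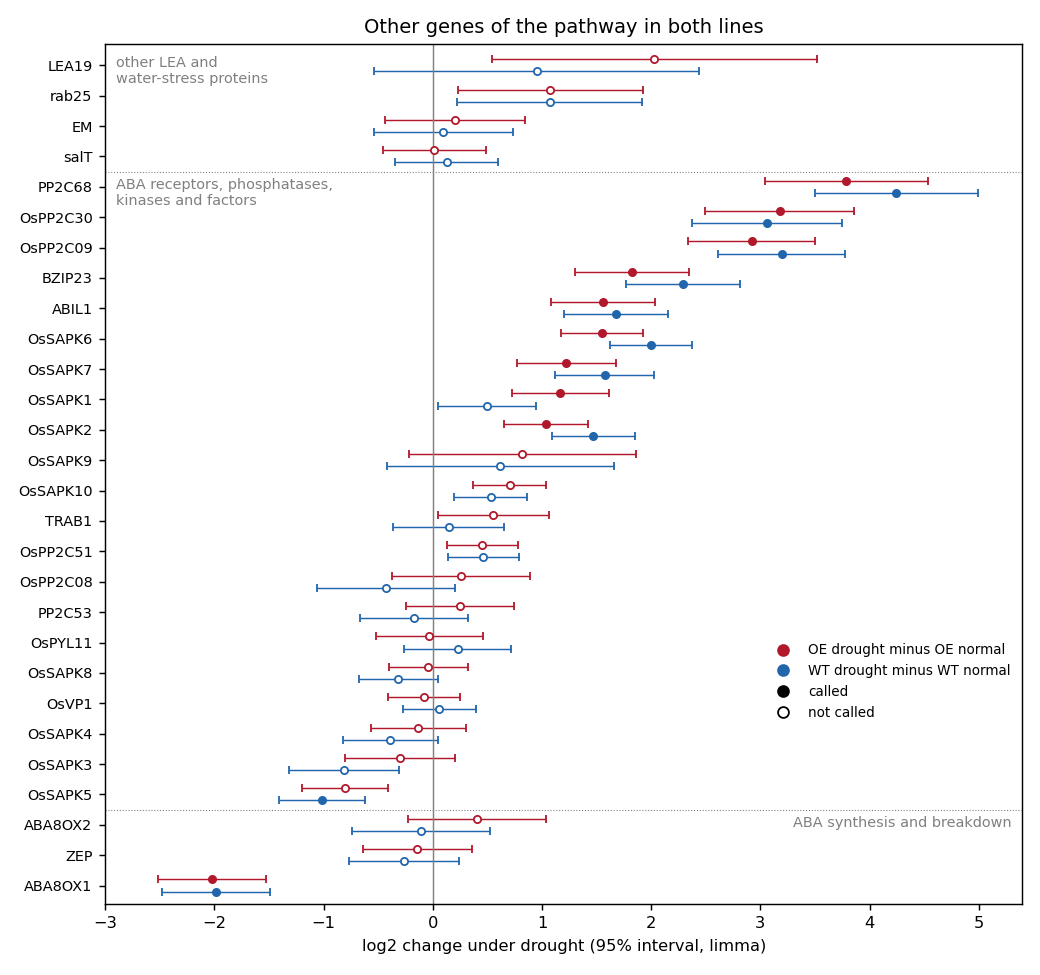
Log2 change under drought (x axis) with 95% intervals from limma for the 28 other genes of the pathway, in OsGRAS23-OE (OE, red, upper) and WT (blue, lower), with filled points for called changes. The phosphatases PP2C68, OsPP2C30 and OsPP2C09 lie at 2.92 to 4.24, ABA8OX1 at -2.03 and -1.99, and the 4 LEA and water-stress genes hold no filled point.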

How the data were processed

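Leaf RNA of 8 samples was labelled (6 µg each) and measured on Affymetrix rice arrays, 2 per group. The authors deposited log2 expression values per probe set, made by RMA, which subtracts background, normalizes arrays and summarizes probes. The submitters' processing notes name Partek 6.5, and the sources used here do not give its settings. No further normalization was applied. Of 57381 rows, 187 array controls were left out. Probe sets were named through the platform table and the RefSeq table of assembly ASM3414082v1, used for names and gene order only. It gave 1 gene for 22436 probe sets, several for 95 and none for 34663.

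A mean per group was fitted to all 8 arrays with limma 3.58.1 (R 4.3.3, 4 residual and 4.85 prior degrees of freedom), with Benjamini-Hochberg adjustment over 57194 probe sets within each comparison. The number of arrays limits the precision. Arrays of unstated batch were not split. For a gene of a list the probe set with the highest mean stood in, and symbols matched by mistake (aba1 and RCAR5) were dropped from the lists. Named genes were all members, up to 4 called rises and falls per list, and the 5 probe sets most correlated with RAB16B and with Dhn1. Members and lists were chosen with earlier results of these data known. Alternatives were the compared groups alone, quantile normalization, a mean log2 level above 5, a block for the replicate number, leaving out each array, the adjusted p alone, and for lists the median over probe sets. The fit was tested on simulated data with noise drawn independently for each array. For WT drought against WT normal it called 68 of 100 log2 changes of 1.5 and 97 of 100 of 3. It also called 5 unchanged probe sets. Only 100 probe sets were changed at each size, whereas 4392 were called in this comparison of the data. The adjusted threshold was therefore stricter in the simulation, and these rates do not carry over to the data. Simulated noise had the same spread in every group, unlike that of RAB16B and RAB21. Deviations shared by arrays, as between the drought replicates of the RAB16 genes, were not simulated. Plots used Python 3.11.15 and matplotlib 3.10.9.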

Additional observations from a re-analysis of the deposited data

How the results depend on the processing

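Across 48 member changes (8 probe sets in 6 comparisons), 542 values were recomputed and 502 kept their direction and side of the threshold. In 24 an uncalled change turned its sign, 23 of them with an array left out, and none of these had an adjusted p under 0.05. Dhn1 on its bright probe set kept its calls under every alternative. With an array left out, the drought change of RAB16B was 3.18 to 5.52 in OsGRAS23-OE and 2.77 to 4.63 in WT, and that of RAB21 (_at) was 1.74 to 4.82 in OsGRAS23-OE and 2.87 to 4.33 in WT. That of RAB21 (_s_at) was 1.24 to 3.77 in OsGRAS23-OE and 1.48 to 2.32 in WT, and that of RAB16C was 0.51 to 1.69 in OsGRAS23-OE and 0.11 to 1.22 in WT. The dim probe sets of Dhn1 changed by -0.35 to 0.066 (_s_at) and -0.10 to 0.087 (_at) in OsGRAS23-OE. OsGRAS23-OE drought against WT drought gave -0.77 to 1.57 for RAB16B, -0.33 to 0.85 for RAB16C, and -1.55 to 1.52 (_at) and -0.55 to 1.98 (_s_at) for RAB21. OsGRAS23-OE normal against WT normal gave -0.28 to 0.23 for Dhn1 (0.0072 after quantile normalization), -0.37 to 0.011 for RAB16C, -0.24 to 0.18 for RAB16D and -0.065 to 0.29 for RAB21 (_s_at). The difference between the drought changes was -0.52 to 1.82 for RAB16B, -0.15 to 1.03 for RAB16C, and -1.86 to 1.22 (_at) and -0.66 to 1.86 (_s_at) for RAB21.

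The number of member probe sets called was 1 to 4 in OsGRAS23-OE and 1 to 4 in WT with an array left out. Over all probe sets the calls were then 317 to 1469 in OsGRAS23-OE (lowest without OsGRAS23-OE normal replicate 1), 1930 to 7223 in WT (without WT normal replicate 2 and without WT normal replicate 1) and 7 to 22 between the lines under normal conditions. After quantile normalization 41.1% of the WT calls were higher, against 28.2% as deposited. Of the ABA receptor, phosphatase, kinase and factor genes, 5 to 9 were called higher in OsGRAS23-OE and 0 to 1 lower in WT with an array left out, and 0 were called lower in WT after quantile normalization. Of the 4 other LEA and water-stress genes, 0 to 1 were called higher in WT with an array left out, and 1 with the compared groups alone and with the replicate block. The cause of these changes was not tested. The labels do not tie equal replicate numbers together, and deviations of same-numbered arrays correlated at -0.17 to 0.10. With the replicate number as a block all 48 member changes kept their direction and side, with 1355 calls in OsGRAS23-OE and 4339 in WT over all probe sets, and the change of RAB16B had adjusted p-values of 0.0118 in OsGRAS23-OE and 0.00828 in WT (limma).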
